A study of Mus musculus with 6 samples.

Results

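The genes described are 10 of the 32285 genes in the count matrices, chosen by symbol: Atf4, its related factor Atf5, its targets Asns, Trib3 and Chac1, the serine synthesis enzymes Phgdh and Psat1, the mitochondrial one-carbon enzymes Shmt2 and Mthfd2, and the amino acid transporter Slc7a5. All 10 were found, each in 1 row. They were measured by droplet single-cell RNA-seq in the dorsal skin of male wildtype FVB mice aged between postnatal days 55 and 57, which were shaved and waxed. Skin was taken at 0 h, at 4 h and 16 h after depilation and on days 2, 4 and 6 (2 d, 4 d, 6 d), with 1 library at each time, and each library held the cells of 2 mice, prepared apart and pooled in equal numbers. No difference between 2 time points therefore has a replicate, and time, the mice and the library cannot be told apart.

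Mammalian cells turn the translation of Atf4, a basic leucine zipper transcription factor, upward when eIF2 is phosphorylated, as happens when amino acids are short or proteins misfold. Atf4 then switches on genes for amino acid synthesis, uptake and tRNA charging, together with factors that feed back on it. Among its known targets are the enzymes that make serine from a glycolytic intermediate and pass the carbon of serine, in mitochondria, to folate for purine synthesis. The skin renews its epidermis throughout life, while its hair follicles (HFs) rest in telogen and grow in anagen, and waxing moves resting HFs into growth. Because Atf4 is controlled mainly at translation, the RNA level of Atf4 is not a measure of its protein.

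The libraries held 72634390 to 112370376 unique molecular identifiers (UMIs), and 6520 to 11032 cells per library, 50502 in all, were analysed with a median of 5896.5 to 10392 UMIs. Over the 15 pairs of libraries, 315 shared cell barcodes were counted. Cells were grouped into outer bulge (OB) of the HF, basal and suprabasal upper HF (uHF.B and uHF.SB), basal and suprabasal interfollicular epidermis (IFE.B and IFE.SB), sebaceous gland (SG), hair matrix, melanocytes, T cells and Langerhans cells. The markers of a class were higher in it than over all cells in every library for 9 of 10 OB, 6 of 8 uHF.B, 6 of 8 uHF.SB, 6 of 8 IFE.B and 9 of 9 IFE.SB markers, and for all markers of SG, melanocytes, T cells and Langerhans cells. The class called hair matrix carried its markers at only 147 to 578 CPM (UMIs per 1000000 UMIs) summed from 0 h to 2 d, against 3418 and 5256 CPM at 4 d and 6 d, so its early cells are not described as matrix. A level below is the UMIs of a gene over those of all genes in the cells of a class in a library, as CPM, and its interval, where given, is an exact Poisson interval at 95%, which covers counting error only.

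Atf4 and its relatives bind DNA at composite sites that join parts of C/EBP and Atf motifs, whose core is often written TGATGNAA. The letters TGATGNAA and TGNNGCAA were searched on both strands of the 250 bases before the start of each gene, in the RefSeq promoters of GRCm38.p6, the reference of another strain than FVB. Of 32851 promoters, 3.45% held TGATGNAA, 9.59% held TGNNGCAA and 12.1% held either. Of the 9 genes with an entry, 2 held TGATGNAA, 4 held TGNNGCAA and 5 held either. These 9 genes had 11 entries and were counted by gene, whereas the shares of all promoters are by entry. Slc7a5 had no entry. Atf4, Phgdh, Shmt2 and Mthfd2 had an entry and no match, and Mthfd2 had the largest 4 h to 0 h ratio in OB cells. Shmt2, also without a match, moved at 4 h in several classes, and Phgdh at 4 h in OB cells. Phgdh and Shmt2 differed in suprabasal cells as well. Genes with and without a match therefore changed, and a link between match and change was not tested. Of the genes with a match, Asns and Atf5 moved at 4 h, Psat1 at 4 h in OB cells, and Trib3 and Chac1 differed in suprabasal cells. Their stretches are shown in lower case with the matching letters in capitals, 5′ to 3′ on the strand of the gene.
Chac1: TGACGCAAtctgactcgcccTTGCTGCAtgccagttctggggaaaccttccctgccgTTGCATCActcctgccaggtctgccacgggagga
Trib3: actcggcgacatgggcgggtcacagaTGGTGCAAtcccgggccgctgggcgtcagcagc
Asns: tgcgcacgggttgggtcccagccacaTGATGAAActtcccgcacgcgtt
Atf5: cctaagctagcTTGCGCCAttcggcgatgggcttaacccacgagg
Psat1: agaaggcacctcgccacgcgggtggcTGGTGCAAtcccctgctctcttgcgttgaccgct

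The Chac1 stretch is chr2:119350992-119351082 on the plus strand and held matches at 3 positions, from 250 to 193 bases before the start, of which the last fits both motifs. The others are on the minus strand with 1 matched position each. They are chr2:152344061-152344119 for Trib3, with the match 33 bases before the start, and chr6:7693210-7693258 for Asns, with the match 23 bases before it. Those of Atf5 (chr7:44816864-44816908) and Psat1 (chr19:15925162-15925221) began 239 and 136 bases before the start. A match is a description, not a site or a cause, and the motifs were chosen after the sequences had been seen.

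The clearest movement was at 4 h in the HF and epidermis. In OB cells, the bulge cells that hold HF stem cells, Mthfd2, the mitochondrial dehydrogenase that oxidises folate-bound carbon, was at 3.81, 102, 22.2, 22.4, 19.6 and 9.80 CPM from the 0 h to the 6 d library, the first 2 of these from 9 and 279 UMIs. Asns, which makes asparagine, was at 10.2, 100, 59.4, 22.4, 27.4 and 20.3 CPM, and the 6 values of a gene are given in this order of time throughout. Both were highest in the 4 h library and lowest in the 0 h library. The 4 h to 0 h ratio was 26.8 (interval 13.9 to 59.3) for Mthfd2 and 9.89 (6.51 to 15.7) for Asns.

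Atf5, a factor that is itself a target of Atf4, was at 13.1, 56.4, 59.8, 17.7, 26.7 and 24.9 CPM in OB cells, and Psat1, which makes phosphoserine, at 8.88, 34.4, 29.7, 33.3, 24.4 and 18.2 CPM. Slc7a5, which carries large neutral amino acids across the membrane, was at 8.46, 30, 10.3, 10.5, 22.1 and 11.4 CPM. All 3 had their lowest level at 0 h. Atf5 had its highest level at 16 h, close to that at 4 h, and Slc7a5 had a further high value at 4 d. Their 4 h to 0 h ratios were 4.30 (2.91 to 6.55), 3.88 (2.40 to 6.55) and 3.55 (2.16 to 6.11). Atf4 itself, at 260, 518, 310, 171, 154 and 261 CPM, was 1.99 times as high at 4 h, and Shmt2, the mitochondrial enzyme that splits serine, at 16.9, 33.0, 36.3, 31.9, 39.0 and 25.7 CPM, 1.95 times. Phgdh, the first enzyme of serine synthesis, went the other way, at 62.2, 30, 85.3, 115, 223 and 112 CPM, with a ratio of 0.483 (0.364 to 0.637) and its highest level at 4 d.

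Trib3, a pseudokinase that binds Atf4 and Akt, had 3, 10, 12, 4, 3 and 9 UMIs in OB cells, which is 0.25 to 3.66 CPM. Chac1, which degrades glutathione, had 2, 16, 15, 3, 8 and 6 UMIs, or 0.654 to 5.86 CPM. Both had more UMIs at 4 h and 16 h than at 0 h. The 4 h to 0 h ratio was 6.93 (1.63 to 62.1) for Chac1, above 1 over its whole interval, and 2.89 (0.743 to 16.3) for Trib3, whose interval includes 1, and neither gene reached the 20 UMIs asked for below.

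**Figure D1:**
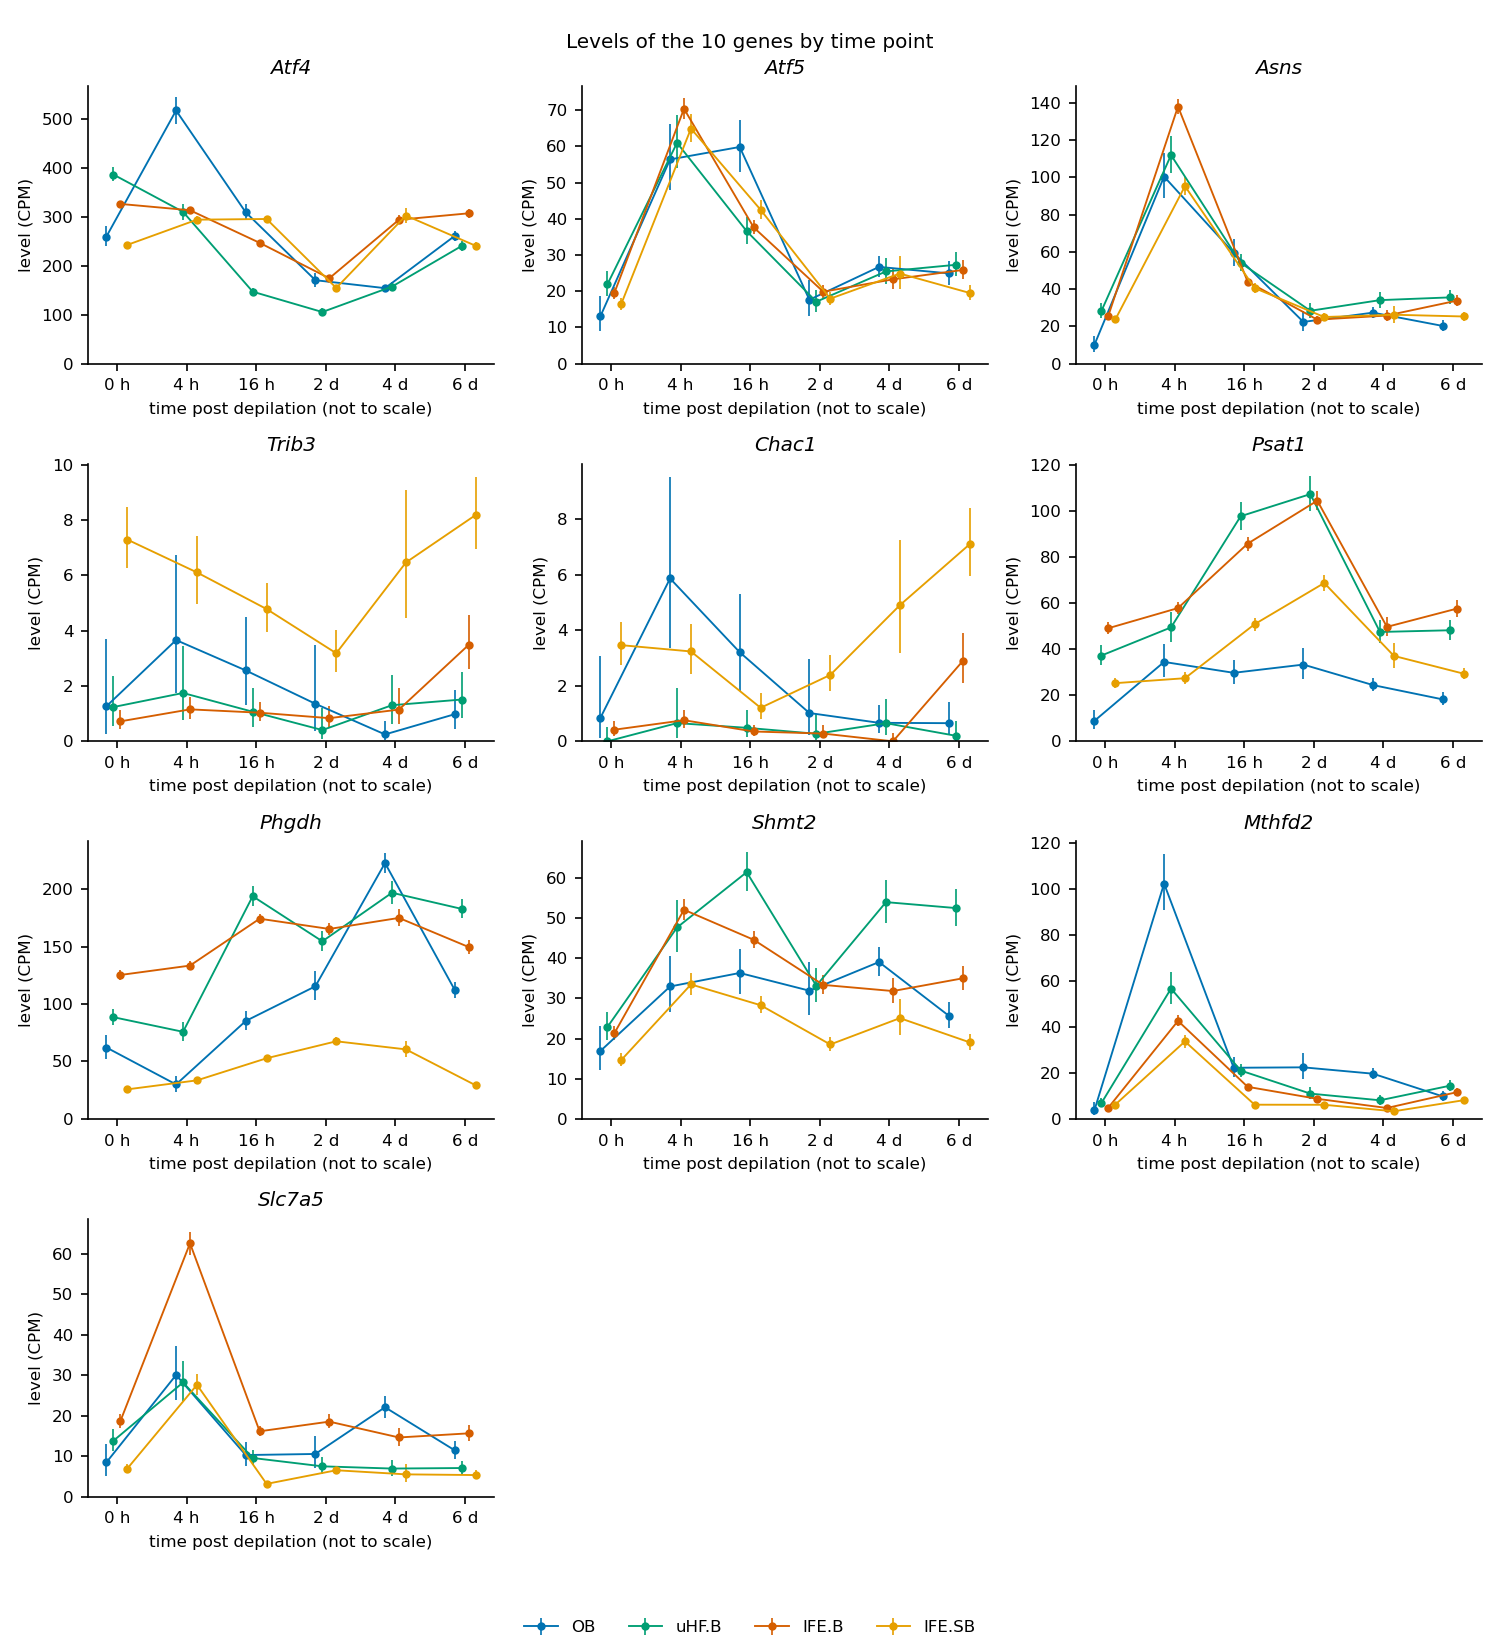
Levels of the 10 genes in OB, uHF.B, IFE.B and IFE.SB cells at the 6 time points post depilation, drawn at equal spacing and not to scale, in CPM with exact Poisson 95% bars. Mthfd2 and Asns stand highest at 4 h in all 4 classes, whereas Phgdh in OB cells stands lowest at 4 h and highest at 4 d.

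A gene was called higher at 4 h where the ratio to 0 h was at least 2 with non-overlapping intervals and at least 20 UMIs in both libraries together, a rule set after the data had been seen. In OB cells 5 of 8 genes with enough UMIs were higher and 1 lower, while 15% of 9671 genes over the whole set were higher. In uHF.B, 5 of 8 were higher against a background of 17.5%, in uHF.SB 3 of 8 against 16.3%, in IFE.B 5 of 10 against 15.1%, and in IFE.SB 5 of 10 against 15.8%. In T cells 0 of 3 were higher, against 10.2%. The share of all genes called lower at 4 h was not counted, so counts of lower genes at 4 h, here and below, have no background. The median ratio of the members was 3.71 in OB cells, where that of all genes was 0.999.

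Mthfd2 was higher by this rule in all 5 epithelial classes, at 8.22 times the 0 h level in uHF.B, 14.9 in uHF.SB, 8.68 in IFE.B and 5.38 in IFE.SB. Asns was higher in the same 5 classes, at 3.96, 2.70, 5.35 and 4.01 times the 0 h level in those 4. Atf5 was also higher in all 5, at 2.78, 3.01, 3.60 and 3.92 times. Shmt2 was called higher in uHF.B (2.08), IFE.B (2.44) and IFE.SB (2.28), and Slc7a5 in uHF.B (2.05), IFE.B (3.36) and IFE.SB (3.99). Atf4 was not, at 0.803 in uHF.B, 0.960 in IFE.B and 1.21 in IFE.SB. Psat1 and Phgdh, called in OB cells, were not called in the other 4 classes. In uHF.B, uHF.SB, IFE.B and IFE.SB, Psat1 was at 1.33, 1.03, 1.18 and 1.09 times the 0 h level. Phgdh was at 0.856, 0.829, 1.07 and 1.30 times. The ratio of a single member therefore differed widely between classes, and the classes of a library share its mice and its preparation.

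**Figure D2:**
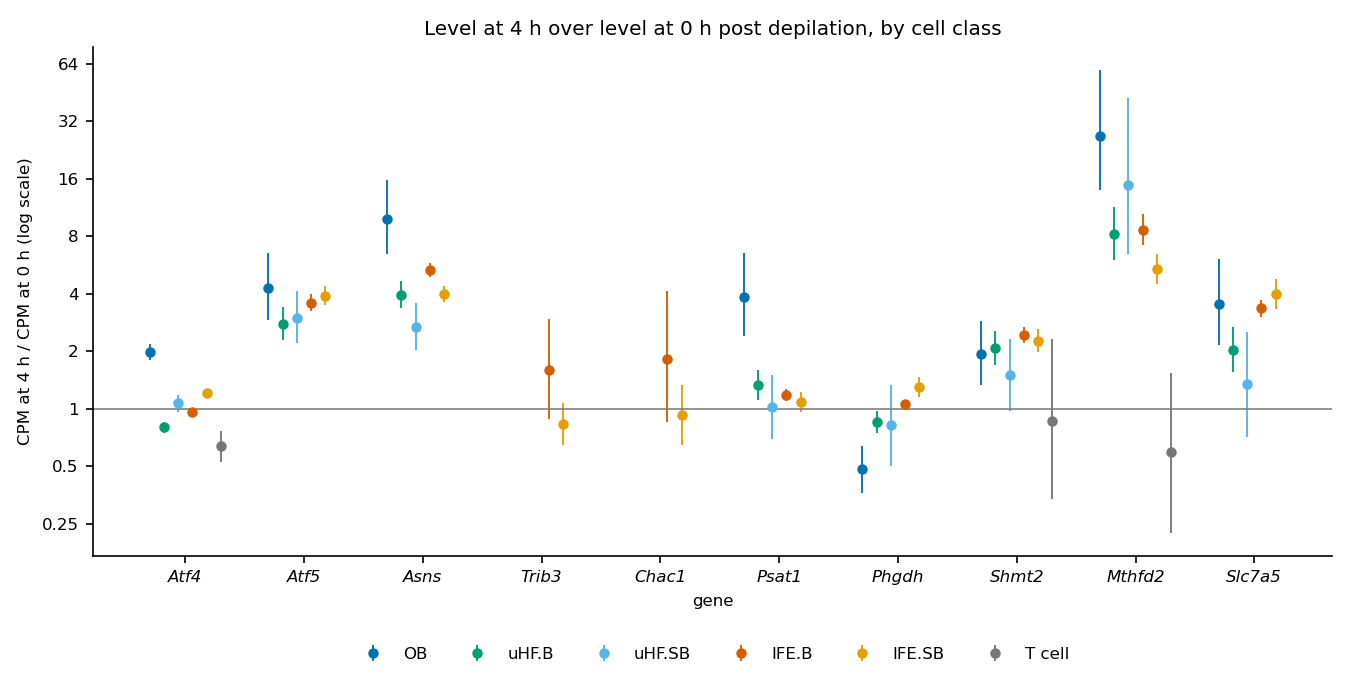
Ratio of the level at 4 h to that at 0 h for the 10 genes in OB, uHF.B, uHF.SB, IFE.B, IFE.SB and T cells, on a log scale, with intervals from exact counts and 1 library at each time. Mthfd2 reaches 26.8 in OB cells and lies above 5 in the other 4 epithelial classes. In T cells its ratio is 0.593, from 10 UMIs at 4 h and 11 at 0 h, with an interval of 0.226 to 1.54 that includes 1.

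In the lists of neighbouring pathway genes, cytosolic tRNA synthetases, which charge tRNAs with amino acids, were higher at 4 h for 16 of 20 genes in OB cells, 18 in uHF.B, 17 in uHF.SB, 19 in IFE.B and 18 in IFE.SB, with median ratios of 3.11, 3.40, 3.09, 3.62 and 3.20. In T cells it was 2 of 18. Purine synthesis genes were higher for 4 of 10 in OB cells and 7 of 10 in IFE.B, and in OB cells Gart and Ppat, 2 enzymes of that route, were at 4.03 and 3.78 times the 0 h level. Genes of eIF2, its exchange factor eIF2B and its kinases were higher for 6 of 14 in OB cells. Eif2b3, a subunit of eIF2B, was at 4.73 times and Eif2s1, of eIF2 itself, at 4.53 times.

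The partners and targets of Atf4 in OB cells gave 2 higher and 4 lower of 14, with a median ratio of 1.17, and Ddit4, an inhibitor of mTORC1, was at 0.104 times and Jdp2 at 0.216. Serine and glycine genes gave 2 higher of 6, Shmt1 at 3.97 and Psph at 2.41. Amino acid transporters gave 3 higher of 9, with Slc7a1, a carrier of cationic amino acids, at 15.5 and Slc7a8 at 15.2. Folate genes gave 3 higher and 2 lower of 11, with Mthfd1l at 5.32, and methionine cycle genes 2 higher and 2 lower of 9, with Mtrr at 5 and Mat2a at 3.40.

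Signs of preparation, cycling and cell makeup also differed between these 2 libraries. In OB cells the 10 OB markers summed to 22939 CPM at 0 h and 9718 at 4 h, the 8 IFE.B markers to 8738 and 19315, the 8 uHF.SB markers to 2346 and 5986, and the 6 markers of the inner bulge to 624 and 4166. Of 12 genes known to rise during tissue dissociation, 0 were higher and 8 lower at 4 h in OB cells, 7 lower in uHF.B and 3 in IFE.B, and their summed level in OB cells was 32562 CPM at 0 h, 16348 at 4 h and 8437 to 15540 later. The share of OB cells in cycle was 11.2, 1.73, 7.15, 25.6, 44.8 and 21.6% in order of time. Among non-cycling OB cells alone Mthfd2 was at 3.39 CPM at 0 h and 103 at 4 h, and Phgdh at 62.5 and 31.5. A cluster of OB cells led by Col14a1 held 12, 17, 53, 184, 1461 and 778 cells. The part of the dissociation genes, the markers and this cluster in the levels was not tested.

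Over all 6 libraries, a smooth curve in hours was fitted with edgeR (quasi-likelihood), and no gene was called in OB cells (0% of 11232) and none of the 9 members tested there. The unadjusted p was under 0.05 for 883 genes and for 0 of the 9 members. DESeq2 called 393 genes in all. Likewise 0% were called by edgeR in the time course in uHF.B cells (237 with an unadjusted p under 0.05, and 36 by DESeq2), in the time course in uHF.SB cells (442 and 103), in the time course in IFE.B cells (80 and 17) and in the time course in IFE.SB cells (317 and 100). With 6 libraries the curve left 2 residual degrees of freedom.

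Time set as log2(hours + 1), which gives the early libraries more room, called 13.5% of genes in OB cells and 5 of 9 members. The adjusted edgeR p was 0.0016 for Asns, 0.0098 for Atf5, 0.034 for Atf4, 0.035 for Chac1 and 0.049 for Phgdh. In hours but without the 0 h library, 7 of the members had an adjusted p under the threshold of 0.05, against 19.8% of genes, with Mthfd2 at 2.8e-07 and Asns at 7.4e-07, and the fit then has 1 residual degree of freedom. Whether a member is called in OB cells over time therefore depends on the scale of time and on the 0 h library.

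Outside the epithelium, Slc7a5 in melanocytes, the pigment cells, was called over time, against 2.82% of genes. Its level was 22.2 (from 2 UMIs), 49.3, 35.9, 116, 274 and 171 CPM, so the 3 later libraries lay above the 3 earlier ones without overlap. The edgeR adjusted p of the whole curve was 0.0071. Along its linear term, from the first to the last time, the log2 change was 2.88 (SE 0.56). The call was lost with a linear trend (0.085), with the same number of cells in each library (0.059), without the 16 h library (0.065) and without the 4 d library (0.13).

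The melanocytes of the early libraries were few, 30 at 0 h, and held fewer UMIs. The summed level of 7 melanocyte markers was 3659 to 5254 CPM from 0 h to 16 h and 9218 to 27770 CPM from 2 d to 6 d, with none of them at 0, while that of 8 IFE.B markers was 5661 CPM at 0 h and 974 CPM at 4 d. At 2 d the 8 uHF.SB markers summed to 12098 CPM, and to at most 1184 CPM in the other libraries. The part of these values in the Slc7a5 result was not tested. Hair matrix (5.47% of genes called), Langerhans cells (0.344%) and T cells (0.051%) gave 0 of 8, 0 of 4 and 0 of 6 members. In these 3 classes, edgeR gave an unadjusted p of 0.032 for Atf4 in hair matrix and 0.033 for Phgdh in T cells. With time as log2(hours + 1), the edgeR adjusted p of Atf4 was 0.033 in hair matrix and 0.013 in melanocytes. A linear trend gave 0.047 for Atf4 in hair matrix, and time as rank gave 0.015 in melanocytes. In hair matrix, Atf4 and Asns were also called without the 0 h library, and Mthfd2 without the 4 h library.

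**Figure D3:**
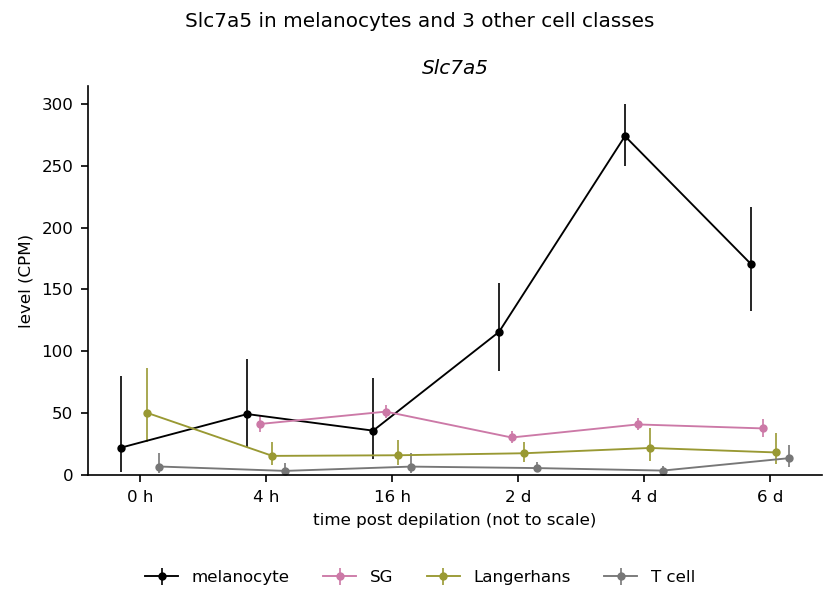
Slc7a5 level in CPM with exact Poisson 95% bars in melanocytes, SG, Langerhans cells and T cells at the 6 time points, without SG at 0 h. Melanocytes reach 274 CPM at 4 d from 22.2 CPM (2 UMIs) at 0 h, while T cells stay at or below 13.6 CPM.

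Cells in cycle were compared with cells not in cycle inside the same library, a cell being cycling where it held at least 2 UMIs of 10 cycling genes after thinning to 2000 UMIs. In OB cells Mthfd2 was at 6.94, 106, 27.0, 53.6, 29.8 and 21.8 CPM in cycling cells from 0 h to 6 d, and at 3.39, 103, 21.9, 3.85, 8.10 and 5.31 CPM in the others. Cycling cells were higher in 6 of 6 libraries, by little at 4 h and 16 h. The 0 h and 4 h values rest on 49 and 10 cycling cells. The fitted log2 difference was 1.54 (SE 0.41, edgeR adjusted p = 0.032).

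Psat1 in OB cells was at 17.4, 63.7, 35.1, 40.9, 31.0 and 32.9 CPM in cycling and at 7.75, 33.4, 29.3, 29.2, 16.2 and 12.7 CPM in non-cycling cells. It was higher in cycling cells in 6 of 6 libraries, with a log2 difference of 0.80 (SE 0.17, edgeR adjusted p = 0.00064). Its cycling values at 0 h and 4 h rest on only 5 and 3 UMIs. Shmt2 was at 17.4, 42.5, 59.4, 45.4, 46.1 and 34.0 against 16.9, 33.0, 34.4, 24.2, 30.8 and 22.3 CPM. It was higher in 6 of 6 libraries and by 0.56 on the log2 scale (SE 0.14, edgeR adjusted p = 0.0052). Its cycling values at 0 h and 4 h rest on 5 and 2 UMIs. Phgdh was at 59.0, 0, 111, 172, 272 and 197 against 62.5, 31.5, 83.2, 83.2, 169 and 79.9 CPM. It was higher in the 4 later libraries, by 0.68 on the log2 scale (SE 0.17, adjusted p = 0.0049).

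These 4 of 8 members were called higher in cycling OB cells and 0 lower, while 9.25% of all genes were called higher and 12.4% lower. Slc7a5 had a log2 difference of 0.43 (adjusted p = 0.15), and Asns of -0.10 (0.76). All 4 calls were lost without the 6 d library, at adjusted p = 0.19 for Mthfd2, 0.052 for Psat1, 0.051 for Shmt2 and 0.14 for Phgdh. Mthfd2 was also lost without the 0 h (0.082) or 4 d library (0.23), and Shmt2 without 4 d (0.080). Each was lost as well where 1 cycling UMI was enough, or without thinning, and Phgdh with DESeq2 (0.14).

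In uHF.B cells Mthfd2 (log2 difference 0.96, SE 0.17, adjusted p = 0.00012), Psat1 (0.45, SE 0.083) and Phgdh (0.35, SE 0.078) were called higher, 3 of 8 against 13.8% of genes, and 0 lower against 17.5%. The Mthfd2 call was lost without thinning (0.93, adjusted p = 0.086), and Shmt2 was then called (0.0014), as it was where 1 cycling UMI was enough (0.0040). In IFE.B cells it was 4 of 10 against 17.6%, and 0 lower against 26.1%. There Mthfd2 differed by 1.12 (SE 0.31, adjusted p = 0.028), Psat1 by 0.36 and Phgdh and Shmt2 by 0.20 each on the log2 scale. The Mthfd2 call in IFE.B was lost without 0 h (0.057), 16 h (0.063), 4 d (0.063) or 6 d (0.052), and that of Shmt2 without 2 d (0.087) or 6 d (0.069). Where 1 cycling UMI was enough, Mthfd2 differed by 0.68 (adjusted p = 0.14), and without thinning by 0.62 (0.32). Shmt2 was lost under both (0.090 and 0.093) and without the filter on low counts (0.14), as was Phgdh without the filter (0.055). Between OB and IFE.B cells the cycling difference itself did not pass for any of the members, against 4.05% of genes: edgeR's interaction gave 0.48 for Phgdh (adjusted p = 0.081). Phgdh passed in 4 of 7 alternatives, with DESeq2's size factors (0.042) and without the 0 h (0.019), 4 h (0.015) or 16 h library (0.025), and Psat1 in 1, without 16 h (0.039).

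Of the folate list 4 of 12 were higher in cycling OB cells, with Tyms, which makes thymidylate, higher by 2.38 on the log2 scale, and the median over the list was 0.02 against -0.08 for all genes. Purine genes gave 3 of 10 higher, with Ppat at 0.67, tRNA synthetases 5 higher and 1 lower of 20, and serine and glycine genes 0 of 7. Dissociation genes gave 11 of 12 lower.

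**Figure D4:**
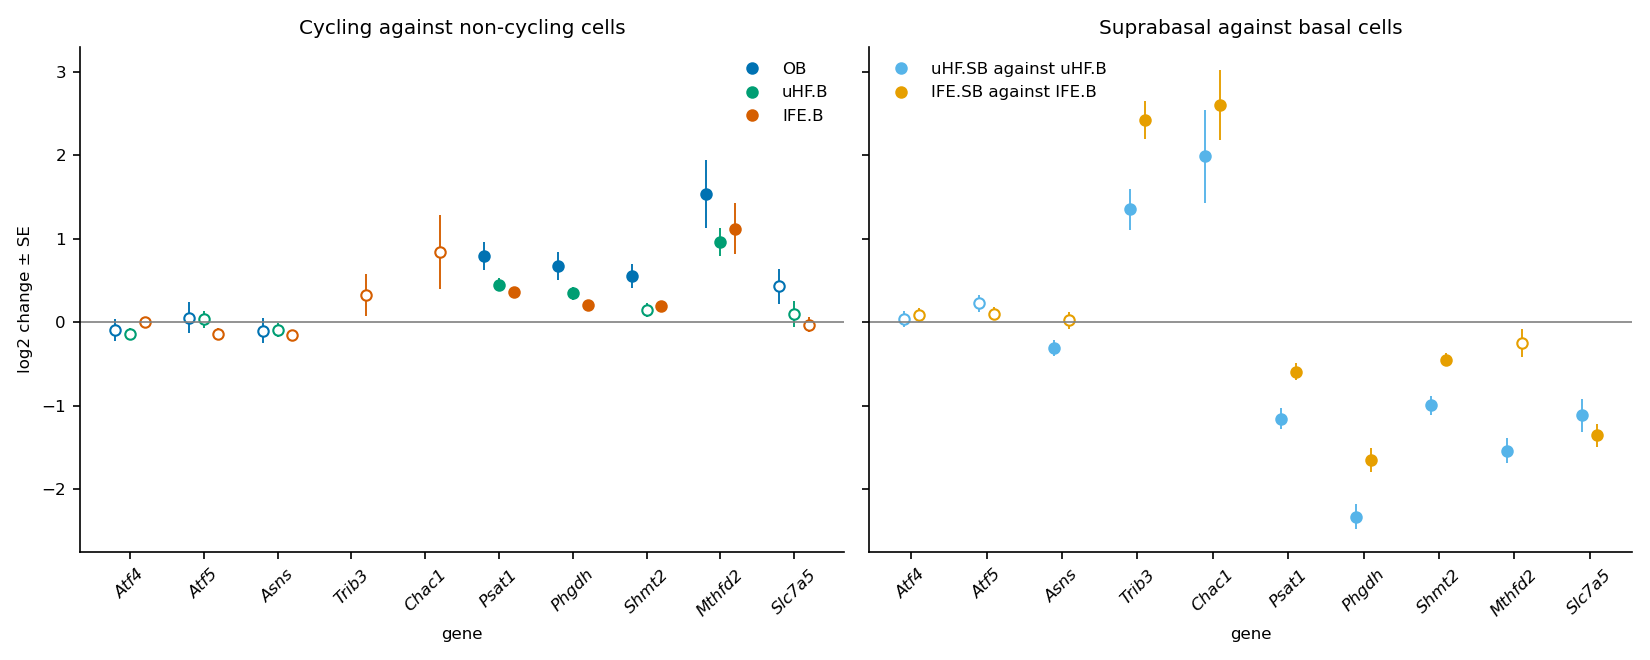
Log2 difference with its SE for the members between cycling and non-cycling cells (left) and between suprabasal and basal cells (right), from edgeR with the library as a block, with filled points for called genes and open points for the others. Mthfd2, Psat1 and Phgdh lie above 0 in cycling cells of OB, uHF.B and IFE.B, and Phgdh, Psat1, Shmt2 and Slc7a5 lie below 0 in both suprabasal layers.

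Suprabasal cells have left the basal layer and are differentiating. Against IFE.B, IFE.SB cells had more Trib3, at 7.29, 6.11, 4.78, 3.18, 6.47 and 8.18 CPM from 0 h to 6 d where IFE.B had 0.722, 1.16, 1.03, 0.838, 1.15 and 3.48. The 2 layers overlapped only through the 6 d basal and the 2 d suprabasal library, and IFE.SB was higher in 6 of 6 (log2 difference 2.43, SE 0.23, adjusted p = 1.8e-05). Chac1 was at 3.46, 3.23, 1.21, 2.39, 4.90 and 7.09 CPM against 0.418, 0.760, 0.354, 0.279, 0 and 2.88, higher in 6 of 6 (2.61, SE 0.42, adjusted p = 0.00062). Both are at low levels, at most 8.18 CPM.

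The serine genes went the other way. Phgdh was at 125, 133, 174, 165, 175 and 150 CPM in IFE.B and at 25.8, 33.6, 52.8, 67.6, 60.6 and 29.3 in IFE.SB, lower by 1.65 on the log2 scale with no overlap between the layers. Slc7a5 had a log2 difference of -1.35, Psat1 of -0.59 and Shmt2 of -0.45. In all, 2 of 10 members were called higher and 4 lower, against 30.1% and 33.5% of genes. Mthfd2 differed by -0.24 (SE 0.17, adjusted p = 0.23), by -0.40 without the 0 h library (0.032), and by 0.28 among non-cycling cells alone.

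In the upper HF, uHF.SB against uHF.B gave Chac1 higher by 1.99 on the log2 scale (SE 0.56, adjusted p = 0.0094), a call lost without the 6 d library (0.066), and Trib3 higher by 1.36 (SE 0.24, adjusted p = 0.00061). Both rest on few counts over all 6 libraries, 53 UMIs in uHF.SB and 17 in uHF.B for Chac1, and 103 and 56 for Trib3. At 2 d uHF.SB had 0 UMIs of Chac1, where the cycling uHF.B cells had 1. Phgdh was lower by 2.33, and Mthfd2 had a log2 difference of -1.54, Psat1 of -1.16, Slc7a5 of -1.12, Shmt2 of -0.99 and Asns of -0.30. The Asns call was lost without 4 h (0.074) or 2 d (0.068). This is 2 of 10 higher and 6 of 10 lower, against 28.3% and 30.4% of genes, a share of lower genes above that of all genes.

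Among the neighbouring lists, purine genes were lower in suprabasal cells for 9 of 10 in the IFE and 10 of 10 in the upper HF, with Atic, which closes the purine ring, at a log2 difference of -3.24 and -3.13. Folate genes gave 6 lower and 2 higher of 14 in the IFE and 8 lower and 1 higher of 13 in the upper HF, with Fpgs, which traps folate in the cell, at -2.33 and -2.48. Of serine and glycine genes in the IFE 4 were higher and 3 lower of 9, with Gldc, of the glycine cleavage system, higher by 7.10. The partners and targets of Atf4 gave 7 higher and 4 lower of 17 in the IFE, with Nupr1 at 4.54 and Cth, which makes cysteine, at -2.88. All 10 cycling markers were lower in both suprabasal layers.

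The suprabasal change of Mthfd2 was larger in the upper HF than in the epidermis, by -1.29 on the log2 scale (SE 0.23, edgeR interaction, adjusted p = 0.0023), against 12.5% of genes called. The interaction also passed for Shmt2 (-0.54, adjusted p = 0.021) and Psat1 (-0.56, adjusted p = 0.044). Shmt2 was lost without 16 h (0.072), 4 d (0.091) or 6 d (0.080), and Psat1 without 16 h (0.0995), 2 d (0.11), 4 d (0.17) or 6 d (0.13).

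OB cells compared with uHF.B had less Psat1 in 6 of 6 libraries (log2 difference -1.52, SE 0.20, adjusted p = 0.00042), and less Phgdh (-0.80) and Shmt2 (-0.71). Asns at -0.59 (adjusted p = 0.049) was lost without 0 h (0.065), 2 d (0.098), 4 d (0.090) or 6 d (0.12). Chac1 was higher in OB cells in 6 of 6 libraries by 1.96 (SE 0.55, adjusted p = 0.023), and this was lost without 6 d (0.053). It rests on few counts, 50 UMIs in OB and 17 in uHF.B over all 6 libraries, and 2 against 0 UMIs at 0 h. That is 1 of 10 higher against 16.4% of genes and 4 lower against 13.4%. Among the transporters Slc7a8 was higher by 4.85 and Slc38a2 by 1.24, and Cbs, which starts the route from homocysteine to cysteine, was lower by 2.23.

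Over 13 classes, SG cells, which make sebum, had the highest Psat1 and Phgdh of all classes in each of their 5 libraries. Psat1 there was at 173, 160, 310, 188 and 182 CPM from 4 h to 6 d, and its range lay above that of IFE.B, the class next to it, at 49.0 to 104 CPM. Phgdh in SG was at 262, 336, 235, 336 and 304 CPM and its range overlapped that of the next class. For each gene the 12 pairs of neighbours in the order of the medians were compared. The ranges of all pairs overlapped, apart from 1 pair each for Psat1, Asns (Langerhans cells above T cells) and Shmt2 (OB2 above the inner bulge).

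The highest median belonged to Langerhans cells, the antigen-presenting cells of the epidermis, for Mthfd2, with 38.8, 42.6, 27.7, 37.0, 38.4 and 53.0 CPM. T cells had 19.1, 11.3, 22.3, 29.5, 42.1 and 35.9 CPM. Neither had its highest level at 4 h, where Mthfd2 was highest in OB, uHF.B, uHF.SB, IFE.B and IFE.SB. T cells were at the bottom for Asns, at 3.46 to 11.2 CPM, and had 1 UMI of Chac1 in all 6 libraries together.

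**Figure D5:**
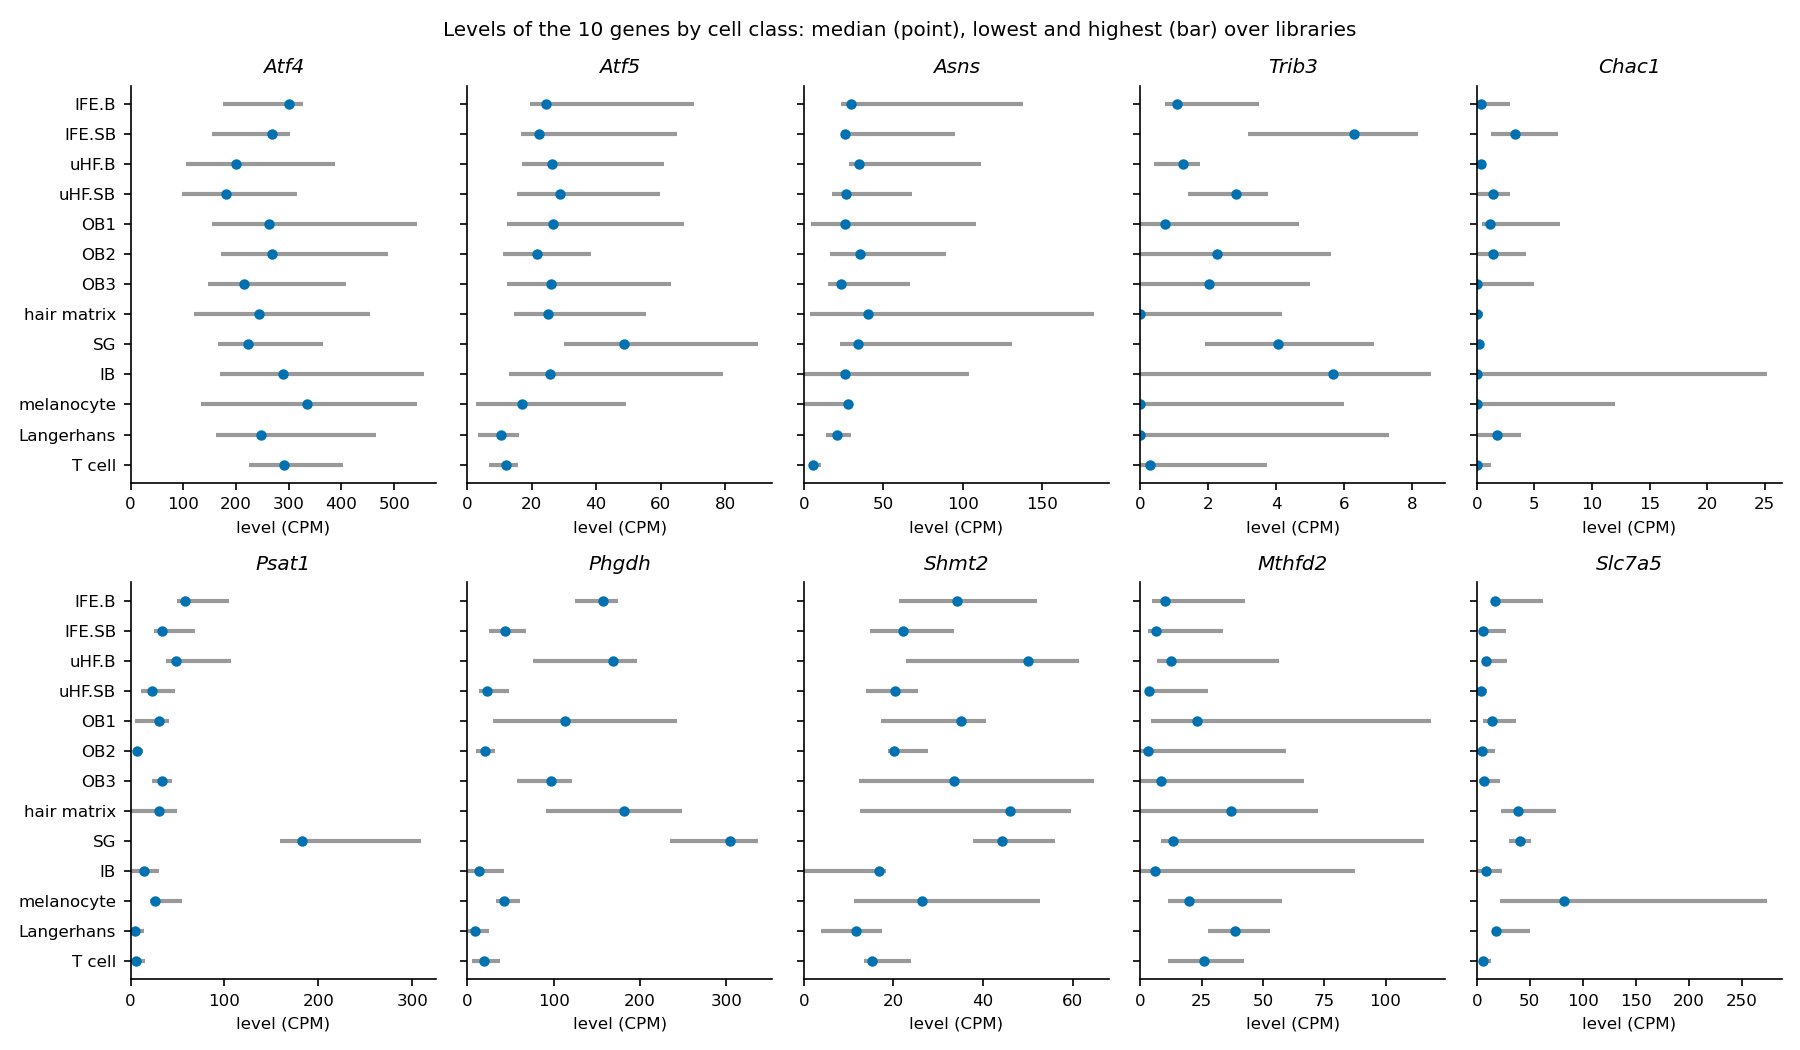
Median (point) and lowest to highest (bar) level of the 10 genes over the libraries in 13 cell classes, in CPM. SG stands apart for Psat1 at 160 to 310 CPM, melanocytes reach 274 CPM of Slc7a5, and most other bars overlap.

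For each member the genes with the most similar levels over 85 sums of class and library were found among 8430 genes. The sums share their library and depth, so the correlations are given as description. Pearson's r of Asns was 0.85 with Srm, that of Mthfd2 0.81 with Nars, a tRNA synthetase, that of Phgdh 0.81 with Adk, that of Shmt2 0.80 with Tfdp1 and that of Atf4 0.80 with Eif5. Psat1 had an r of 0.70 with Phgdh, another member, and also of 0.70 with Hmgn1, the most similar gene outside the members. Trib3 and Chac1, at low counts, reached only 0.54 with Slc6a14 and 0.57 with Ly6m.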

How the data were processed

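The deposited matrices hold raw UMI counts per gene and barcode, which the authors made with Cell Ranger 6.1.2 (build mm10 per the submitters' processing notes) without normalization. Of 61031 barcodes, 55177 had 500 to 7000 genes and at most 10% mitochondrial UMIs, and 4675 likely doublets were removed at 0.8% per 1000 barcodes. Cells were joined and clustered with Seurat 5.3.0 (2000 variable genes, 30 components, resolutions 0.2 and 0.4), and 691 genes, the members included, were kept out. Clusters were named from marker lists. Counts were summed per class and library where at least 20 cells (10 for cycling cells) were present, and tested with edgeR 4.0.16 in R 4.3.3 over all genes, with a natural spline of hours (3 df) or the library as a block, and Benjamini-Hochberg adjustment at 0.05. DESeq2 1.42.0 was an alternative. On simulated counts the time course in OB cells recovered 99.5% of 200 changed genes (log2 change of 3) among 11180 genes. The comparison of OB against uHF.B cells recovered 97.5% of 200 (log2 change of 1.5) among 11774 genes. The planted changes were linear in hours for the time course, and the same in every library for OB against uHF.B. They were put only in genes expected at more than 20 UMIs in the OB cells of each library, with a fixed dispersion of 0.05. Recovery of other sizes or shapes of change, such as a peak at 4 h, or in the other comparisons, was not tested. The same holds for genes with fewer UMIs or more spread. All 10 members were named, with the 3 genes most correlated with each (mean of at least 10 CPM), and of each list the 2 called genes with the largest change, of which some values are not reported here. The members and lists were chosen with earlier results of these data known. The study's methods give digestion steps that differ by hair cycle stage for sorted cells; whether they were used here is not stated. No batch labels were given.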

Additional observations from a re-analysis of the deposited data

Results flagged for a closer look

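In 3 genes the change from basal to suprabasal cells differed between the upper HF and the epidermis, by the interaction term of edgeR over all libraries. The difference, upper HF minus epidermis, was -1.29 on the log2 scale for Mthfd2 (adjusted p = 0.0023). For Shmt2 it was -0.54 (adjusted p = 0.021), and it was lost without the 16 h (0.072), 4 d (0.091) or 6 d library (0.080). For Psat1 it was -0.56 (adjusted p = 0.044), and it was lost among non-cycling cells (0.083) and without the 16 h (0.0995), 2 d (0.11), 4 d (0.17) or 6 d library (0.13). No time point had more than 1 library, so no library could be set against others of its group.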

How the results depend on the processing

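The tests over time rest on 6 unreplicated libraries, and genes below about 5 UMIs in a class are beyond this depth. No paired analysis was possible because no time point has a second library to pair with another time; classes and cycling states were paired within a library through the library block. The 4 h rule, the interactions with their alternatives and the suprabasal comparison in non-cycling cells were added after seeing the data. Apart from leaving out a library, 993 values kept their direction and side of the threshold, 39 weakened, 14 strengthened and 16 turned sign. With a library left out, 802 did, 30 weakened, 18 strengthened and 13 turned sign. The cause was not tested.

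Genes called with the processing changed are given against the number reported, with leave-outs as a range. For the time course in OB cells (0) it was 1516 with log2(hours + 1), 624 with rank time, 27 without the filter on low counts, 393 with DESeq2 and 9 to 2264. The time course in IFE.B cells (0) gave 17 with DESeq2 and 0 to 2. For the time course in IFE.SB cells (0) it was 6 with log2 time, 2 with rank, 1 with a linear trend, 100 with DESeq2 and 0 to 217. The time course in uHF.B cells (0) gave 36 with DESeq2 and 0 to 176. In the time course in uHF.SB cells (0), log2 time gave 112, rank 1, no filter 2, DESeq2 103 and leave-outs 5 to 247. The time course in Langerhans cells (23) gave 13 with log2 time, 41 with rank, 0 with a linear trend, 170 without the filter, 14 without robust fitting, 4 in non-cycling cells, 13 with the same cell number and 59 to 539. In the T cell class (time course in T cell cells, 4) log2 time, a linear trend, non-cycling cells or the same cell number gave 0, no filter 204, DESeq2 40 and leave-outs 20 to 458. For the time course in hair matrix cells (409) it was 1053 with log2 time, 847 without the filter, 113 in non-cycling cells, 245 with the same cell number and 69 to 1063. In the time course in melanocyte cells (142), log2 time gave 524, rank 325, a linear trend 35, no filter 275, DESeq2 72, non-cycling cells 88, the same cell number 55 and leave-outs 88 to 190.

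Without the library block no member was called between cycling and non-cycling cells, and the genes called were 87 of 2381 for cycling against non-cycling OB cells, 401 of 3504 for cycling against non-cycling uHF.B cells and 685 of 5235 for cycling against non-cycling IFE.B cells. In OB it was 1227 with DESeq2, 675 at 1 cycling UMI, 810 without thinning and 939 to 2656 in leave-outs, and in IFE.B 2479 without thinning. Without the block there were 4392 of 8542 genes for IFE.SB against IFE.B cells, 3052 of 7164 for uHF.SB against uHF.B cells and 1185 of 3759 for OB against uHF.B cells. At 4 h, T cells had 354 genes higher with TMM scaling and 395 among non-cycling cells, against 670. Leave-outs gave 866 to 2046 genes for the interaction of layer (suprabasal minus basal, upper follicle minus epidermis, 1632) and 128 to 668 for that of cycling (cycling minus non-cycling, OB minus IFE.B, 512).

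Signs turned only where a change was not called. Cycling OB cells: Asns -0.10 to 0.14 without thinning, Atf4 -0.09 to 0.0040 without thinning, and Atf5 0.06 to -0.25 without the block, -0.13 at 1 cycling UMI and -0.033 to 0.31 in leave-outs. Cycling uHF.B: Asns -0.10 to 0.14 and Atf5 0.04 to -0.067 without thinning, Atf5 -0.083 and Slc7a5 0.10 to -0.088 without the block, and Atf5 -0.042 to 0.090 in leave-outs. Cycling IFE.B: Atf4 0.0090 to -0.014 without the filter and -0.019 at 1 cycling UMI, and Slc7a5 -0.03 as reported and -0.072 to 0.085 in leave-outs. IFE layers: Asns 0.02 to -0.12 without the block, -0.041 in non-cycling cells and -0.017 to 0.16 in leave-outs, and Mthfd2 -0.24 to 0.28 in non-cycling cells. Upper HF layers: Atf4 0.04 to -0.030 without the block, -0.0050 in non-cycling cells and -0.063 to 0.12 in leave-outs. In OB against uHF.B, Trib3 0.03 became -0.016 without the filter and -0.33 to 0.48 in leave-outs, and Atf4 -0.022 to 0.34. For the interactions, leave-outs gave -0.081 to 0.015 for suprabasal Atf4 and -0.075 to 0.24 for cycling Asns.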
